A study of Homo sapiens with 6 samples.

Results

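Kruppel-like factors are transcription factors that bind GC-rich and CACCC sequences through zinc fingers at the carboxy end of the protein. Members with different amino ends recruit different partners: KLF2, KLF4, KLF5, KLF6 and KLF7 act mostly as activators, KLF3 represses through CtBP proteins, and KLF9, KLF10, KLF11 and KLF13 can repress through SIN3A. In the kidney tubule, KLF4, KLF5 and KLF6 are known for roles in epithelial differentiation, proliferation and the response to injury. The 10 genes described here (KLF2, KLF3, KLF4, KLF5, KLF6, KLF7, KLF9, KLF10, KLF11 and KLF13) were chosen by symbol from a table of 35035 genes, and all 10 were found in it and passed the filter on low values.

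The cells were HK-2, an immortalised line labelled as human proximal tubular epithelium. They had been transfected with a circAASS overexpression plasmid (3 libraries) or with the empty-vector plasmid (3 libraries); the genotype label of the empty-vector cells is WT. By its name, circAASS is a circular RNA of the gene AASS. Every library, the empty-vector ones included, came from cells kept at 1% oxygen for 24 h and reoxygenated for 12 h, so no value stands for cells at normal oxygen. A single cell line was used, and no label says that repeats were grown apart; p-values therefore reflect only how these libraries vary, which may be technical.

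Values are RPKM, reads scaled to gene length and library size, which can be compared between genes. Libraries held 47384879 to 58179563 reads with the circAASS plasmid and 45148425 to 52470055 with empty vector. Fold changes are circAASS over vector on the log2(RPKM + 0.1) scale after scaling of the libraries, which understates the change of low genes. A gene is said to have risen or fallen where limma's Benjamini-Hochberg adjusted p over all 19349 tested genes was under 0.05. By that rule 3091 genes rose (16.0%) and 3152 fell (16.3%), and with scaling by library size alone 2159 rose and 4023 fell. The defining proximal tubule genes LRP2, CUBN, AQP1 (26.5% of its exon bases under other genes), ANPEP, SLC34A1 and HNF4A were below the filter, while KRT8, KRT18 and PAX8 averaged 149, 107 and 42.3 RPKM with circAASS and 127, 79.3 and 25.0 RPKM with vector. Of 13 tested renal epithelial markers 6 rose (PAX8 by a log2 fold change of 0.83) and 3 fell (CDH6 by -1.37). Of 15 markers of other cell types none rose or fell (5 were tested). The 15 together summed to 79.5 to 101 RPKM in the circAASS libraries and 103 to 107 RPKM in the vector libraries. Without CD68 and COL1A1 the sums were 0.167 to 0.263 RPKM with circAASS and 0.232 to 0.269 RPKM with vector. Apart from CD68 (85.8% of its exon bases under other genes) and COL1A1, no such marker exceeded 0.0626 RPKM in a circAASS library or 0.0826 RPKM in a vector library, and UMOD was at 0 in all vector libraries and AQP2 in all circAASS libraries. AASS averaged 0.880 RPKM with circAASS and 1.23 RPKM with vector (limma adjusted p = 0.0677); a gene-level sum does not separate circular from linear RNA, so it does not check the labels. RN7SK, an RNA without a poly(A) tail, was at 55.6, 135 and 190 RPKM with circAASS and at 44.7, 34.1 and 37.0 RPKM with vector. RN7SL1, likewise without a tail, averaged 18.3 RPKM with circAASS and 9.43 RPKM with vector. The nuclear RNAs NEAT1 and MALAT1 averaged 7.15 and 131 RPKM with circAASS and 15.7 and 187 RPKM with vector. All 4 passed the test (limma adjusted p from 0.000471 to 0.0181), they moved with the same groups as the genes below, and their part in those results was not tested.

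The bases before the RefSeq starts of KLF5, KLF4, KLF6 and KLF13, members that rose or fell, are shown first (GRCh38.p14, read 5′ to 3′ on the gene's strand). Capitals mark the motifs CACCC and GGGCGG on either strand, letters that zinc fingers of this family are known to bind; the 2 motifs overlap in one place in the KLF13 window. Each window ends 1 base before the start, except that of KLF6, which stops at the first base of an exon in GENCODE 29. That of KLF4 lies inside the gene as GENCODE 29 places it (107484852 to 107490482), though it holds no annotated exon base.
KLF5, chr13:73054726-73054975, plus strand: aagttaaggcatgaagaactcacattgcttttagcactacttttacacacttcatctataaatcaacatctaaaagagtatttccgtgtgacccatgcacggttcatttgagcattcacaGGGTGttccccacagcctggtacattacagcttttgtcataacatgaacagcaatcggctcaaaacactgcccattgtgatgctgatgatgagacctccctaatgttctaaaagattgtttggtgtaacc
KLF4, chr9:107489770-107490019, minus strand: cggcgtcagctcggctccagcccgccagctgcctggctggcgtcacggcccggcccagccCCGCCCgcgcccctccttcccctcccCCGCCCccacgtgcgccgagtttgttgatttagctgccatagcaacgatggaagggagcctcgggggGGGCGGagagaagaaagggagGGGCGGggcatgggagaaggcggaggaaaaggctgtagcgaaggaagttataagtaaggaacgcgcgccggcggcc
KLF6, chr10:3785282-3785459, minus strand: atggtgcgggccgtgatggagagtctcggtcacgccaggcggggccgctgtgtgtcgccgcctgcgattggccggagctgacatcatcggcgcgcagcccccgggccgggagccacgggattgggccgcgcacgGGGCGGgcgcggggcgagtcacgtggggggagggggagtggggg
KLF13, chr15:31326585-31326834, plus strand: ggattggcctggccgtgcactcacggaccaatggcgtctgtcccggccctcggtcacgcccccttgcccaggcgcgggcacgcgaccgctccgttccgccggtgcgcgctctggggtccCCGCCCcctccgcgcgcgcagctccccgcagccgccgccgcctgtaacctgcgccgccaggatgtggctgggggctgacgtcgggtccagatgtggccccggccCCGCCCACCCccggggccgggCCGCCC

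KLF5, the member with the largest change, has 2 such starts. The window of the first start, printed above, was 40.8% G and C, with 1 CACCC and no GGGCGG. That of the second (chr13:73058755-73059004) was 70.8% G and C, with 2 CACCC and 2 GGGCGG matches. Which start the reads came from cannot be told from sums per gene. The windows of KLF4, KLF6 and KLF13 were 69.2%, 72.4% and 78.8% G and C, with 4, 2 and 3 GGGCGG matches over the 250 bases. RefSeq windows were matched for 8 members but not for KLF3 and KLF10, so KLF10, which also fell, is not shown. Of the 13 windows of these 8 members, 8 held GGGCGG, 6 CACCC and 1 (KLF11) the cyclic AMP response element TGACGTCA. Over all 35116 windows of the same 250 bases, 42.6% held GGGCGG, 54.7% CACCC and 1.65% TGACGTCA, and the median was 58.0% G and C. A match in letters is a description and not a binding site.

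The question of the comparison was how transcripts of HK-2 cells that carry the circAASS plasmid differ from those with empty vector once both have been reoxygenated. KLF5 and KLF4 rose with circAASS, KLF6, KLF10 and KLF13 fell, and KLF2, KLF3, KLF7, KLF9 and KLF11 did not pass the test. Thus 5 of 10 members were called, where 32.3% of all tested genes were, and the groups did not overlap in 6 of 10 members, where this held for 47.9% of all tested genes, both after scaling of the libraries. In bulk RNA, fewer cells that express a gene and less of its RNA per cell cannot be told apart. With members chosen while earlier results were known, these shares are descriptions. The median log2 fold change was -0.13 over the members and -0.01 over all tested genes.

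**Figure D1:**
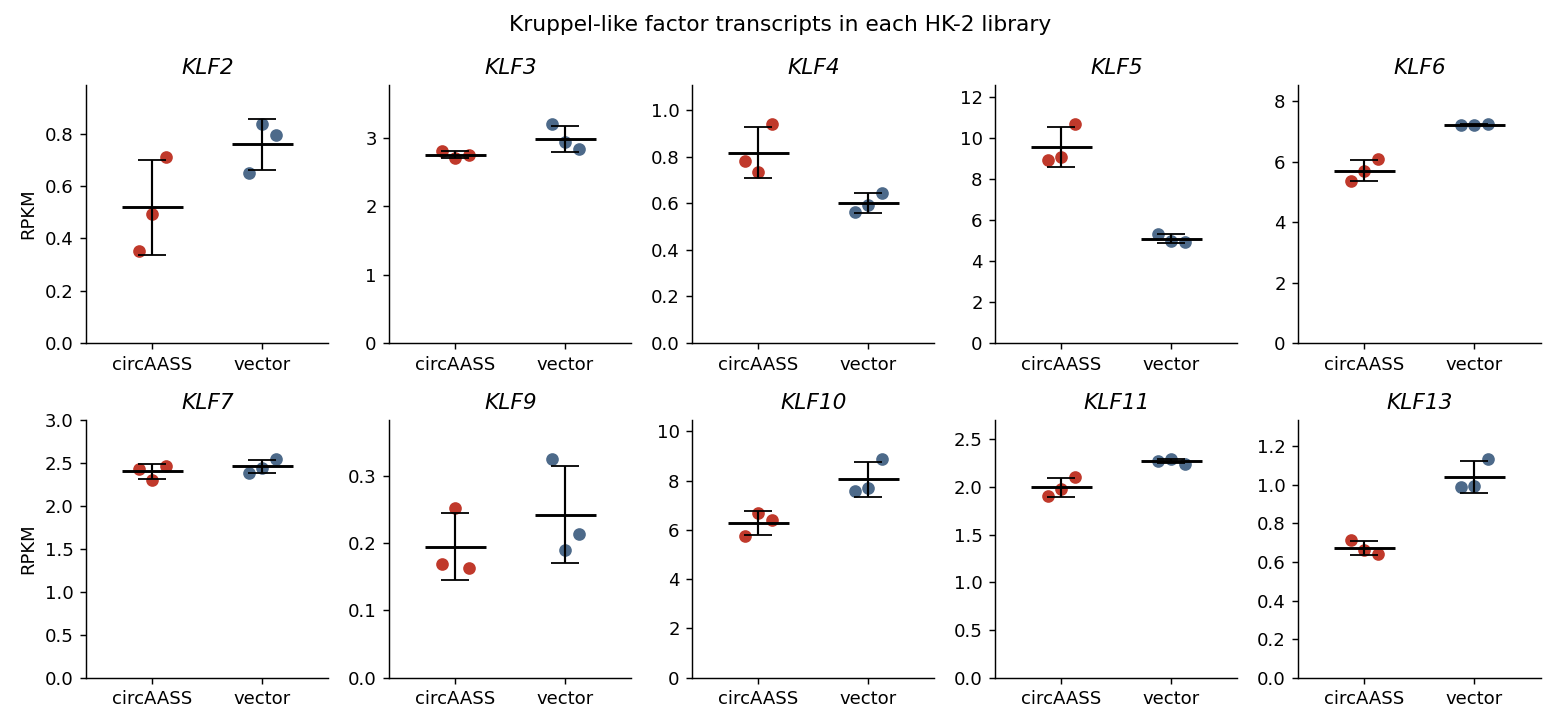
RPKM of each Kruppel-like factor gene (vertical axes from 0, a scale for each gene) in the 3 circAASS and 3 vector libraries; points are libraries, thick bars means and thin bars SD. The 3 circAASS libraries lie above all vector libraries for KLF4 and KLF5, and below all of them for KLF3, KLF6, KLF10, KLF11 and KLF13 (for KLF3 only before scaling of the libraries).

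Among the activators, KLF5, which is known to promote proliferation of epithelial cells, had the largest change (chromosome 13, 73054976 to 73077542 in GRCh38). Its levels were 8.92, 9.10 and 10.7 RPKM in the circAASS libraries and 5.34, 4.96 and 4.94 RPKM in the vector libraries. All circAASS libraries were above all vector libraries, and the highest of the 6 was circAASS library 3. These levels rest on 1665 to 2061 reads with circAASS and 938 to 1010 with vector. The means were 9.57 ± 0.972 RPKM with circAASS and 5.08 ± 0.221 RPKM with vector (SD, n = 3 each). The log2 fold change was 0.97 (SE 0.08, limma adjusted p = 0.000302), a 1.96-fold rise with a 95% interval of 1.73-fold to 2.21-fold. In size it exceeded the changes of 96.1% of tested genes. KLF5 passed under all 13 alternatives, with limma adjusted p of at most 0.00268.

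KLF4, a factor of epithelial differentiation known to slow the cell cycle, was much less abundant (chromosome 9, 107484852 to 107490482). With circAASS it had 137, 156 and 163 reads, or 0.781, 0.733 and 0.940 RPKM. With vector it had 93, 111 and 124 reads, or 0.563, 0.595 and 0.646 RPKM. The groups did not overlap, with circAASS library 3 again the highest. The log2 fold change was 0.45 (SE 0.14, limma adjusted p = 0.0407), a fold of 1.36 with a 95% interval of 1.09 to 1.70. When single libraries were omitted the call was lost without circAASS 1, circAASS 3, vector 1, vector 2 or vector 3 (adjusted p from 0.0706 to 0.113), and it was also lost with scaling by library size alone (adjusted p = 0.0784) and with no filter (adjusted p = 0.0868).

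KLF6, which is known as an early-response gene of the injured proximal tubule, moved the other way (chromosome 10, 3775996 to 3785281). Its levels were 5.36, 5.68 and 6.08 RPKM with circAASS and 7.23, 7.21 and 7.24 RPKM with vector. The vector libraries were almost equal, and each circAASS library was below them. The means were 5.71 ± 0.362 RPKM with circAASS and 7.23 ± 0.0170 RPKM with vector (SD, n = 3 each). KLF6 fell by 0.27 on the log2 scale (SE 0.06, limma adjusted p = 0.0114), a fold of 0.832 with a 95% interval of 0.759 to 0.912. It passed under all 13 alternatives, with limma adjusted p of at most 0.0450.

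KLF2, best known as the flow-induced factor of quiescent endothelium, was at 0.351, 0.494 and 0.711 RPKM with circAASS, from 34, 58 and 68 reads. With vector it was at 0.648, 0.835 and 0.793 RPKM, from 59, 86 and 84 reads. The circAASS libraries were spread widely, and library 3 lay within the range of the vector libraries. KLF2 did not pass (log2 fold change -0.45, SE 0.22, limma adjusted p = 0.161), and the 95% interval, from -0.96 to 0.07, holds both a fall of the size of KLF13's and no change.

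KLF7, known from axon growth in neurons, was level between the groups, at 2.43, 2.30 and 2.47 RPKM with circAASS and 2.39, 2.44 and 2.54 RPKM with vector. Its reads were many (998 to 1237 a library) and its 95% interval of log2 fold change was narrow, from -0.14 to 0.21 (limma adjusted p = 0.738). The estimate of 0.04 turned to -0.03 with scaling by library size alone.

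KLF3, the CtBP-binding repressor of the group, stood at 2.80, 2.70 and 2.75 RPKM with circAASS and at 3.20, 2.94 and 2.84 RPKM with vector. Every circAASS library was below the vector libraries in the deposited RPKM, but the groups overlapped after scaling. The log2 fold change was -0.04, with a 95% interval from -0.23 to 0.14 (limma adjusted p = 0.710). The antisense gene KLF3-AS1 covers 4.22% of its exon bases.

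The members that bind SIN3A were KLF9, KLF10, KLF11 and KLF13, of which KLF10 and KLF13 fell; over all tested genes 16.3% fell. KLF10, known as TGF-beta-inducible early gene 1, was the most abundant member with vector. Its levels were 5.74, 6.67 and 6.41 RPKM with circAASS and 7.57, 7.69 and 8.87 RPKM with vector. The groups did not overlap, and vector library 3 was the highest. The means were 6.27 ± 0.481 RPKM with circAASS and 8.05 ± 0.719 RPKM with vector (SD, n = 3 each). KLF10 fell by 0.28 on the log2 scale (SE 0.08, limma adjusted p = 0.0314), a fold of 0.823 with a 95% interval of 0.724 to 0.936. The call was lost without circAASS 1, circAASS 3, vector 2 or vector 3 (adjusted p from 0.0581 to 0.0914), with no filter (adjusted p = 0.0737) and with no trend or robust estimation (adjusted p = 0.0608).

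KLF13, known from the control of the chemokine RANTES in T lymphocytes, was a low transcript (chromosome 15, 31326855 to 31435665). With circAASS it had 322, 364 and 286 reads, or 0.713, 0.665 and 0.641 RPKM. With vector it had 420, 478 and 560 reads, or 0.989, 0.996 and 1.13 RPKM. All circAASS libraries were below all vector libraries. KLF13 fell by 0.49 on the log2 scale (SE 0.12, limma adjusted p = 0.0193), a fold of 0.711 with a 95% interval of 0.584 to 0.865, and this was the largest fall among the members called. The call was lost without circAASS 3, vector 2 or vector 3 (adjusted p of 0.0581, 0.0502 and 0.0702).

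KLF11, the relative of KLF10 known as TGF-beta-inducible early gene 2, was at 1.90, 1.98 and 2.11 RPKM with circAASS and 2.28, 2.29 and 2.25 RPKM with vector. The groups did not overlap, but KLF11 did not pass (log2 fold change -0.11, SE 0.08, limma adjusted p = 0.304; 95% interval from -0.29 to 0.07). Another gene, AC104794.4, covers 9.07% of its exon bases. KLF9, a gene induced by glucocorticoids, was the least abundant member. It stood at 0.169, 0.252 and 0.163 RPKM with circAASS, from 42, 76 and 40 reads, and at 0.325, 0.189 and 0.214 RPKM with vector, from 76, 50 and 58 reads. The groups overlapped, and a 95% interval of log2 fold change from -0.66 to 0.34 leaves the direction undetermined at this depth (limma adjusted p = 0.600).

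**Figure D2:**
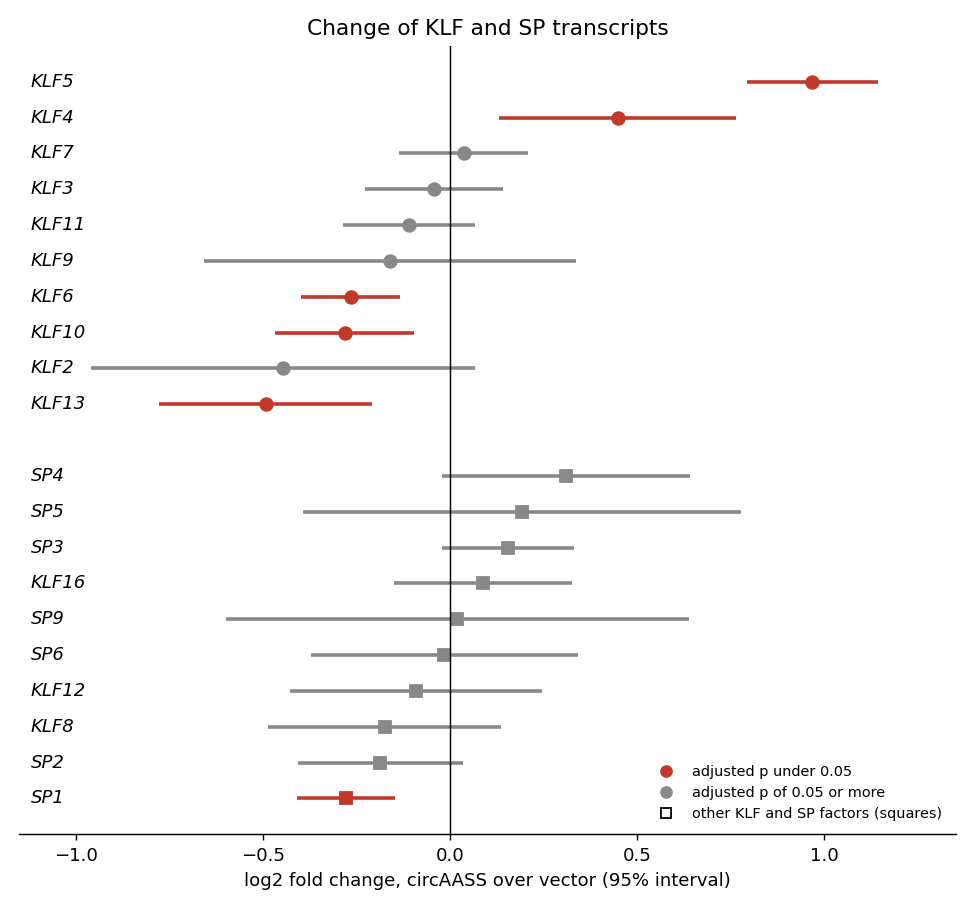
Log2 fold change of circAASS over vector with its 95% interval for the 10 members (circles, upper block) and the other 10 tested KLF and SP factors (squares, lower block). KLF5 stands apart at 0.97, and SP1 at -0.28 is the only factor of the lower block whose adjusted p was under 0.05.

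The order of the members by mean RPKM differed between the groups. With circAASS, KLF5 was first at 9.57 RPKM, ahead of KLF10 and KLF6, whose ranges over the 3 libraries overlapped. With vector, KLF10 was first at 8.05 RPKM, then KLF6 at 7.23 and KLF5 at 5.08, and the ranges of these neighbours did not overlap. KLF3, KLF7 and KLF11 came next, in this order, in both groups. Below them the order was KLF4, KLF13, KLF2 and KLF9 with circAASS, KLF13 and KLF2 overlapping. With vector it was KLF13, KLF2, KLF4 and KLF9, with no overlap between neighbours. The lowest KLF2 value with vector (0.648 RPKM) was nearly equal to the highest KLF4 value (0.646 RPKM), so their order there is uncertain.

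The summed level of the 10 genes was 29.2, 30.6 and 33.0 RPKM in the circAASS libraries and 30.5, 30.2 and 31.5 RPKM in the vector libraries. These are deposited RPKM, and before scaling of the libraries the groups overlapped in the sum. After scaling, the lowest circAASS sum lay just above the highest vector sum, and this difference was not tested. KLF5 made up 30.6%, 29.8% and 32.4% of the sum with circAASS and 17.5%, 16.5% and 15.7% with vector. KLF10 made up 19.7%, 21.8% and 19.4% with circAASS and 24.8%, 25.5% and 28.2% with vector. KLF6 made up 18.4%, 18.6% and 18.5% with circAASS and 23.7%, 23.9% and 23.0% with vector. The share of KLF5 was thus higher, and those of KLF10 and KLF6 lower, in every circAASS library than in any vector library.

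**Figure D3:**
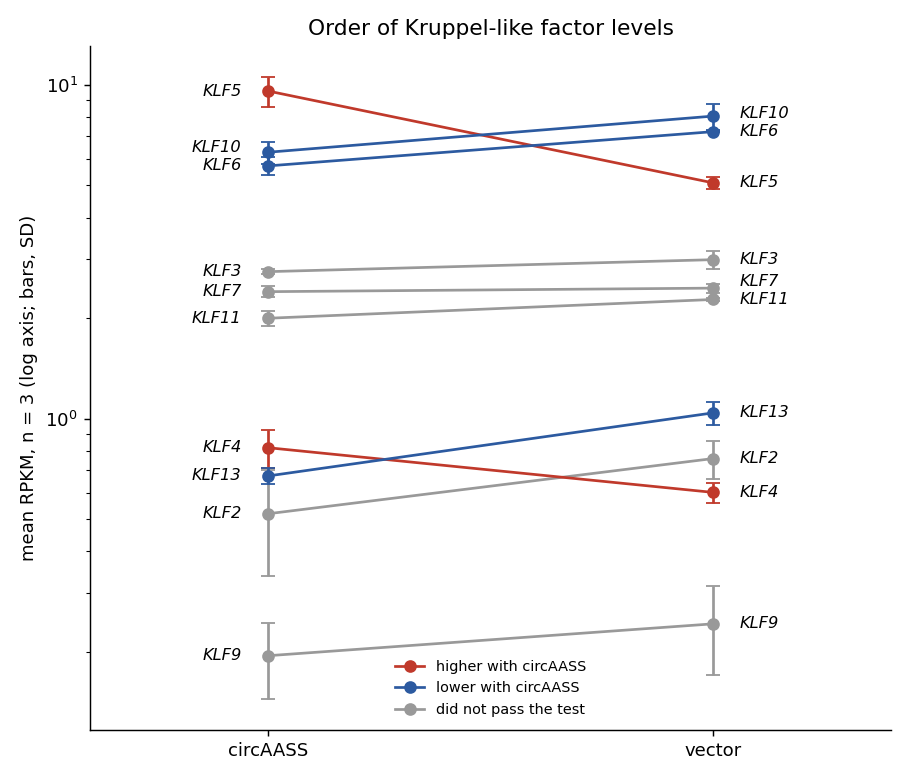
Mean RPKM of each member (log axis, bars SD, n = 3 libraries a group) with circAASS on the left and vector on the right. KLF5 is first with circAASS at 9.57 RPKM and below KLF10 and KLF6 with vector at 5.08 RPKM, and KLF4 stands above KLF13 and KLF2 with circAASS and below them with vector.

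Of the 17 other KLF and SP factors on the list, 10 were tested, none rose and 1 fell (median log2 fold change 0.00). Among all tested genes 32.3% were called. SP1, the widely expressed factor that shares the GC box with this family, stood at 7.78, 7.53 and 8.49 RPKM with circAASS and at 9.90, 9.97 and 10.5 RPKM with vector. The groups did not overlap, and SP1 fell by 0.28 on the log2 scale (SE 0.06, limma adjusted p = 0.00930), a change close in size to those of KLF6 and KLF10. SP3, which competes with SP1 for the same sites, averaged 3.62 RPKM with circAASS and 3.40 RPKM with vector (limma adjusted p = 0.159). SP2 averaged 4.61 and 5.53 RPKM with circAASS and vector, and its adjusted p was 0.172. SP4 averaged 0.591 RPKM with circAASS and 0.481 RPKM with vector, and its call depended on the variance model (limma adjusted p = 0.136, and 0.0453 with no trend or robust estimation). KLF16 averaged 3.04 RPKM with circAASS and 3.00 RPKM with vector, KLF12 0.783 and 0.885, and KLF8 0.0159 and 0.0321. KLF8 left the test when any vector library was omitted, so it passed the filter only through the vector libraries, where it was higher. SP5, SP6 and SP9 averaged 0.570, 0.433 and 0.319 RPKM with circAASS and 0.519, 0.459 and 0.311 RPKM with vector; another gene covers 63.7% of the exon bases of SP9. KLF15, known as a factor of the podocyte and of amino acid metabolism, was below the filter, with reads in 1 circAASS and 1 vector library.

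Proteins that Kruppel-like factors recruit were next. Of 11 corepressors and coactivators tested, 4 rose, none fell and 7 did not pass (median log2 fold change 0.18), and with scaling by library size alone 1 rose. Over all tested genes 16.0% rose and 16.3% fell, and the counts of this and the following lists are descriptions beside these shares. CTBP2, the corepressor that KLF3, KLF8 and KLF12 bind, averaged 12.0 ± 1.10 RPKM with circAASS and 9.93 ± 0.115 RPKM with vector (SD, n = 3 each; log2 fold change 0.34, limma adjusted p = 0.0104). Of its exon bases, 34.7% lie under other genes, so its reads are uncertain. The acetyltransferase EP300 averaged 5.88 RPKM with circAASS and 5.24 with vector, and the deacetylases HDAC2 and HDAC1 27.0 and 85.8 with circAASS and 24.2 and 80.2 with vector. With single libraries omitted, EP300 kept its call only without circAASS 2, HDAC2 only without circAASS 3 or vector 1, and HDAC1 only without circAASS 1 (limma adjusted p up to 0.103, 0.106 and 0.123). SIN3A, the partner of KLF9, KLF10, KLF11 and KLF13, averaged 9.58 RPKM with circAASS and 9.60 RPKM with vector (limma adjusted p = 0.325).

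The MEK5 and ERK5 kinases act on MEF2 factors to switch on KLF2 and KLF4 in endothelium. Of 7 tested genes of this pathway 1 rose, none fell and 6 did not pass (median -0.02), beside 32.3% called of all tested genes. MEF2D averaged 5.21 ± 0.161 RPKM with circAASS and 4.32 ± 0.250 RPKM with vector (SD, n = 3 each; log2 fold change 0.34, limma adjusted p = 0.00718). MAP2K5, which encodes MEK5, averaged 1.08 RPKM with circAASS and 1.55 RPKM with vector and did not pass (adjusted p = 0.0858).

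Of 9 ubiquitin ligases known to act on Kruppel-like proteins, 2 rose, none fell and 7 did not pass (median 0.05). Among all tested genes 32.3% were called. SMURF2 averaged 7.38 ± 0.132 RPKM with circAASS and 5.79 ± 0.160 RPKM with vector (SD, n = 3 each; log2 fold change 0.42, limma adjusted p = 0.00188). WWP1, which marks KLF5 and KLF2 for degradation, averaged 6.57 RPKM with circAASS and 5.72 RPKM with vector. Its call (limma adjusted p = 0.0327) held only when circAASS 1 was the library omitted (adjusted p up to 0.0907), and with scaling by library size alone 1 ligase rose. FBXW7, another ligase of KLF5, averaged 5.56 RPKM with circAASS and 5.67 RPKM with vector and did not pass.

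KLF9 and KLF10 are known outputs of the circadian clock, and KLF9 is a target of the glucocorticoid receptor. Of 16 clock genes tested, 5 rose, 5 fell and 6 did not pass (median -0.20), beside 32.3% called of all tested genes. CRY1, a repressor of the clock, averaged 16.6 ± 1.92 RPKM with circAASS and 6.97 ± 0.149 RPKM with vector (SD, n = 3 each; log2 fold change 1.30, limma adjusted p = 0.000151). The other clock genes that rose were PER1 (1.15 RPKM with circAASS, 0.640 with vector), ARNTL (2.20 and 1.52), NR1D2 (5.19 and 4.19) and CLOCK (log2 fold change 0.27). BHLHE40, a repressor that competes for clock sites, averaged 5.52 ± 0.175 RPKM with circAASS and 11.5 ± 0.378 RPKM with vector (log2 fold change -0.97, limma adjusted p = 0.000115). The other clock genes that fell were HLF (0.101 RPKM with circAASS, 0.320 with vector), PER3 (2.06 and 3.38), BHLHE41 (5.95 and 8.03) and PER2 (0.256 and 0.515). With single libraries omitted, CLOCK kept its call only without circAASS 2, and PER2 only without circAASS 1 or vector 3 (limma adjusted p up to 0.0824 and 0.0973).

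Of 8 tested genes of the glucocorticoid receptor and its targets, 2 rose, 3 fell and 3 did not pass (median -0.07). Among all tested genes 32.3% were called. The feedback inhibitor of the EGF receptor ERRFI1 averaged 18.1 RPKM with circAASS and 12.4 RPKM with vector (limma adjusted p = 0.000405), and PER1, given above, was the other that rose. FKBP5, the chaperone used as a readout of glucocorticoid action, averaged 4.28 ± 0.169 RPKM with circAASS and 6.18 ± 0.120 RPKM with vector (SD, n = 3 each; log2 fold change -0.45, limma adjusted p = 0.00238). CEBPD averaged 6.43 RPKM with circAASS and 9.97 with vector. The kinase SGK1 averaged 2.89 RPKM with circAASS and 3.68 with vector, and its call (limma adjusted p = 0.0488) held only when circAASS 2 was the library omitted (adjusted p up to 0.120). The receptor gene NR3C1 averaged 2.60 RPKM with circAASS and 2.68 RPKM with vector (adjusted p = 0.845).

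KLF10 and KLF11 are induced by TGF-beta. Of 16 tested genes of that pathway and its targets, 2 rose, 4 fell and 10 did not pass (median 0.01). Among all tested genes 32.3% were called. Among those that fell were the matrix protein TGFBI (46.4 RPKM with circAASS, 62.7 with vector), the ligand TGFB3 (0.955 and 1.57) and the feedback inhibitor PMEPA1 (21.0 and 26.3). Those that rose were SKIL (13.5 RPKM with circAASS, 11.3 with vector), a corepressor of SMAD proteins, and SMAD3 (22.4 and 19.7). The call of PMEPA1 was lost without vector 1 (limma adjusted p = 0.0575). TGFB1 averaged 25.8 RPKM with circAASS and 27.3 RPKM with vector, and TGFBR1 12.1 and 13.4; neither passed.

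Genes described as targets of single members were compared last. In mouse proximal tubule, KLF6 is known to act on genes of branched-chain amino acid breakdown. Of 23 such genes, 2 rose, 5 fell and 16 did not pass (median -0.17), and with scaling by library size alone 9 fell. Over all tested genes 32.3% were called and 16.3% fell, so these counts are descriptions. Among those that fell, the methylmalonyl-CoA mutase gene MUT averaged 5.48 RPKM with circAASS and 7.71 with vector, HIBADH 3.32 and 4.57, IVD 2.22 and 2.97, and ALDH6A1 0.544 and 0.829. With single libraries omitted, IVD kept its call only without circAASS 1 or circAASS 3, and ALDH6A1 only without circAASS 1 (limma adjusted p up to 0.0795 and 0.129). Those that rose were BCAT1, the cytosolic aminotransferase, at 22.4 RPKM with circAASS and 14.6 RPKM with vector (limma adjusted p = 0.000346), and PPM1K, the phosphatase that activates the branched-chain dehydrogenase, at 0.604 and 0.319 (limma adjusted p = 0.00449).

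Of 8 cell cycle genes known as targets of KLF4, KLF5 or KLF6, 2 rose, 1 fell and 5 did not pass (median -0.07). Among all tested genes 32.3% were called. Cyclin B1 (CCNB1), repressed by KLF4 and activated by KLF5, averaged 71.7 ± 4.39 RPKM with circAASS and 56.5 ± 1.98 RPKM with vector (SD, n = 3 each; log2 fold change 0.42, limma adjusted p = 0.00129). Cyclin D1 (CCND1), also a target of both, averaged 37.4 RPKM with circAASS and 31.7 RPKM with vector (limma adjusted p = 0.00935). CDKN1A, the cell cycle inhibitor that KLF4 and KLF6 activate, averaged 1.85 ± 0.423 RPKM with circAASS and 2.01 ± 0.180 RPKM with vector and did not pass (limma adjusted p = 0.791).

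In endothelium, KLF2 and KLF4 raise NOS3 and THBD and lower VCAM1, SELE, EDN1 and CCL2. Of 6 tested genes of that list, 3 rose, 1 fell and 2 did not pass (median 0.31), and NOS3, SELE and TEK were below the filter. Among all tested genes 32.3% were called. EDN1, endothelin, averaged 10.7 RPKM with circAASS and 7.20 RPKM with vector (limma adjusted p = 0.000501), and VCAM1 3.01 and 2.41 (limma adjusted p = 0.00661). CCL2 averaged 0.214 RPKM with circAASS and 0.0734 with vector. Its call was lost without circAASS 1, vector 1 or vector 3 (limma adjusted p up to 0.0817). It was also lost with no filter (limma adjusted p = 0.122). At so low a level with vector, CCL2 may have passed the filter only through the circAASS libraries, so its rise is uncertain. Several Kruppel-like genes are themselves induced within minutes by growth factors or stress. Of 13 tested immediate-early genes 7 rose, 1 fell (JUNB, 15.7 RPKM with circAASS and 21.9 with vector) and 5 did not pass (median 0.31). Over all tested genes 16.0% rose and 16.3% fell. IER5, IER3, FOSB and JUN averaged 18.8, 75.4, 2.88 and 71.2 RPKM with circAASS and 9.25, 47.8, 1.44 and 56.5 RPKM with vector, and 26.5% of IER3's exon bases lie under other genes. EGR1 averaged 0.923 RPKM with circAASS and 1.22 RPKM with vector and did not pass (limma adjusted p = 0.445).

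**Figure D4:**
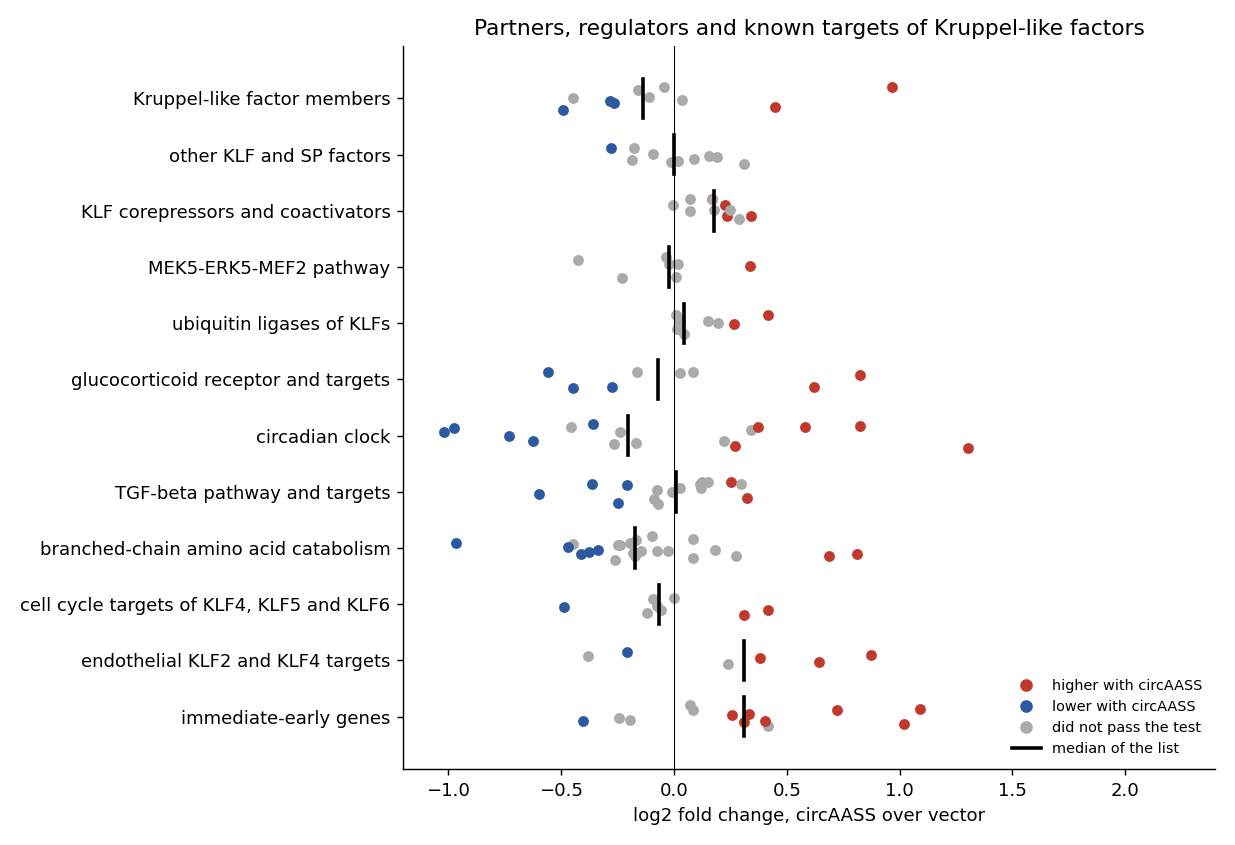
Log2 fold change of circAASS over vector for each tested gene (points) of the members and of 11 lists of their partners, regulators and known targets, with the median of each list as a black bar. The clock genes spread widest, with CRY1 at 1.30, and the medians run from -0.20 for the clock to 0.31 for the immediate-early genes.

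The genes whose levels over the 6 libraries were most like those of a member were sought in the 13341 genes that averaged 1 RPKM or more. For KLF5 these were ARHGAP29, DAPK1 and SGTA, each with a Pearson correlation of 0.999 over the 6 libraries. DAPK1, a pro-death kinase, averaged 18.8 RPKM with circAASS and 9.21 RPKM with vector. A correlation over 0.95 with KLF5 held for 1118 genes; the libraries fall into 2 groups, and these correlations are descriptions. For KLF6 the closest were ZNF701, EML4 and DLST, and 451 genes had a correlation over 0.95. ZNF701 averaged 0.933 RPKM with circAASS and 1.47 RPKM with vector.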

How the data were processed

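RNA of HK-2 cells was made into stranded mRNA libraries and sequenced as read pairs, per the labels' protocols. The deposited values were RPKM in 1 column per library. The submitters' processing notes name Trimmomatic 0.36, featureCounts, Subread 1.5.1, edgeR 3.12.1 and GRCh38; which aligner and annotation were used, and whether counting used strand, is not given in the sources used here. The series' design text gives 24 h after treatment, the labels 12 h of reoxygenation; the labels are followed.

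Exon lengths of GENCODE 29 made 22385 of 24697 genes (90.6%) whole reads within 0.02 reads in all libraries, all members among them; other genes took the smallest length that did. Mates were mostly counted separately, so reads are not independent molecules. Between pairs of libraries the chi-square of the reads per degree of freedom was 13.5 to 22.1 within circAASS and 5.81 to 7.81 within vector. The circAASS libraries thus differed more among themselves, while the test below used a shared variance per gene for both groups. RPKM were scaled with trimmed-mean factors (0.958 to 1.04; 30% of ratios and 5% of levels trimmed) from these reads. Genes reaching 10 reads (scaled to the median library size) in 3 libraries, and 15 over all 6, were tested on log2(RPKM + 0.1) with limma 3.58.1 (R 4.3.3; trend, robust), group as the only term, Benjamini-Hochberg over 19349 genes, two-sided, threshold 0.05. The code was tested on simulated data. Genes with dates for names (28) were left out. With 3 libraries a group an exact permutation test cannot go below 0.1, so none is given. Alternatives were scaling by library size, a pseudocount of 1, other filters, limma-voom on the recovered reads, no trend or robust estimation, a replicate block and leaving out each library.

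The members and gene lists were chosen with earlier results of these data known. Named were all members and tested KLF and SP factors, up to 4 called genes with the smallest p of each list (all where 5 or fewer), and the 3 genes most like the top member in each direction; other genes were chosen after their values were seen. Some genes of the lists are counted but not reported here by name. Means ± SD are of deposited RPKM. For genes of the lists, an overlap by other genes over at least 20% of exon bases is given where the gene is named. Figures were drawn with matplotlib 3.10.9, and tables handled in Python 3.11.15 with pandas 2.3.3 and numpy 2.4.6.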

Additional observations from a re-analysis of the deposited data

How the results depend on the processing

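KLF5, KLF6 and SP1 kept their direction and passed under all 13 alternatives. Members higher with circAASS numbered 2, and 1 with library size alone, with no filter, when genes had to average 1 RPKM (KLF4 and KLF13 then leave the test) and with the replicate block. Fits that left out a library gave 1 to 2 members higher and 1 to 3 lower, and over all genes 2189 to 2790 higher and 2012 to 2905 lower, the fewest without vector library 2. Same-numbered libraries did not deviate together (correlations of 0.03, -0.07 and -0.01, and 0 of 3 circAASS libraries correlated best with their own number). These values gave no sign that the numbers pair the libraries. With 3 libraries a group they cannot show that the libraries were unpaired. With the replicate block KLF4 (adjusted p = 0.0699) and KLF13 (adjusted p = 0.0525) were not called, and 2729 genes were higher and 2699 lower. Log2 fold changes that changed sign, none of them called, were KLF7 with library size alone (-0.034) and SP9 with library size alone (-0.033). With single libraries omitted, the log2 fold changes ran from -0.085 to 0.014 for KLF3, from -0.298 to 0.011 for KLF9, from -0.083 to 0.066 for SP6 and from -0.166 to 0.318 for SP9. Of the list counts, 19 with a library omitted and 21 under other settings moved by over 1.5 times, and 137 and 161 did not. With a pseudocount of 1 RPKM, which by construction shrinks the change of low genes, the log2 fold change was 0.21 for KLF4 and -0.25 for KLF13. Why calls were lost in some fits was not tested. KLF2, KLF4 and KLF9 had the fewest reads of the members.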
